A study of Mus musculus with 18 samples.

Results

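The data described here are 6 of the 18 arrays of a series on mouse embryonic stem cells: 3 control arrays of 72 h and 3 control arrays of 48 h, taken as the labels group them. They show the second step of differentiation in cultures without thalidomide. All cells were of the C57BL/6 strain with no engineered allele named, and they grew as embryoid bodies, balls of cells in suspension that go on to form derivatives of the germ layers. The treatment protocol gives control cultures a vehicle of 0.25% DMSO, added on day 3, whereas the design text speaks of unexposed controls and the source names count hours since aggregates formed. Whether 48 h and 72 h run from day 3 or from aggregation is not settled by the labels. The series' other groups used below are the 3 controls of 24 h, which give the step before, and 6 arrays of cultures exposed to 0.25 mM thalidomide, 3 at 48 h and 3 at 72 h. Whole embryoid bodies were lysed, so each array averages over all cells of a culture. The cell type given in the labels, embryonic stem cell, is that of the starting cells.

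In the mouse embryo, cells of the epiblast pass through the primitive streak, where Mixl1, Eomes and Mesp1 come on, and spread as mesoderm. Anterior and lateral mesoderm then gives rise to heart muscle, smooth muscle, endothelium and primitive blood, and endoderm gives rise to the gut and its organs. Embryoid bodies run through a similar order without the layout of an embryo, and beating heart muscle is among the first differentiated tissues seen in them.

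Values are log2 signals from Affymetrix gene arrays, so a difference of 1 is a doubling, and signals of different genes cannot be set against each other because each probe set has its own response. Group levels are given as mean ± SD (n = 3) and changes as log2 differences ± SE from limma, with p-values adjusted by the Benjamini-Hochberg method over 22180 genes. "Rose", "fell" and "changed" are used for an adjusted p under 0.05. The labels call the arrays biological replicates without naming separate cultures, so p-values measure the spread between these samples. Over all genes, arrays of the 48 h group correlated at 0.9946 to 0.9952, arrays of the 72 h group at 0.9944 to 0.9959, and arrays of different groups at 0.9874 to 0.9915. No array of these groups repeated another. In lysates of whole aggregates, fewer cells of a type and less RNA per cell cannot be told apart.

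Between 48 h and 72 h, 1448 of 22180 genes changed, or 6.53%. Of these, 804 rose (3.62% of the genes tested) and 644 fell (2.9%). A change of at least 2-fold was seen in 93 genes that rose (0.419%) and 35 that fell (0.158%), and 461 changed by at least 1.5-fold. The median change over all genes was -0.02. In 1443 of the 1448 genes the 3 arrays of 72 h lay entirely above or entirely below the 3 arrays of 48 h. A small p-value with 3 arrays in each group favours such separation, so this count is no further support. Some genes that did not pass were also separated, and the share over all genes was not counted. Counts depend on array number: 805 genes changed without replicate 3 of 48 h and 824 without replicate 3 of 72 h, of which 775 and 779 were among the 1448.

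The 4 genes that mark the later cultures all rose. Actc1, which encodes cardiac alpha-actin, read 6.27, 5.55 and 5.84 at 48 h and 9.46, 9.40 and 9.46 at 72 h. That is a change of 3.56 ± 0.33, or 11.8-fold (adjusted p = 7.89e-06), the largest rise of any named gene. The 72 h arrays were nearly identical and the spread lay in the 48 h arrays. Tnnt2, the cardiac form of troponin T, read 8.49, 8.56 and 7.83 at 48 h and 10.76, 10.74 and 10.82 at 72 h, a 5.58-fold rise (adjusted p = 4.63e-05). Acta2, smooth muscle alpha-actin, which early heart muscle also makes, read 8.03, 7.96 and 7.82 at 48 h and 10.88, 10.94 and 11.14 at 72 h, an 8.26-fold rise (adjusted p = 1.03e-05). Igfbp5, a secreted protein that binds insulin-like growth factors, read 9.58, 9.54 and 9.44 at 48 h and 10.84, 10.70 and 10.79 at 72 h, a 2.39-fold rise (adjusted p = 7.04e-07). In none of these 4 genes did the groups overlap, and each passed in all 17 alternative analyses.

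**Figure D1:**
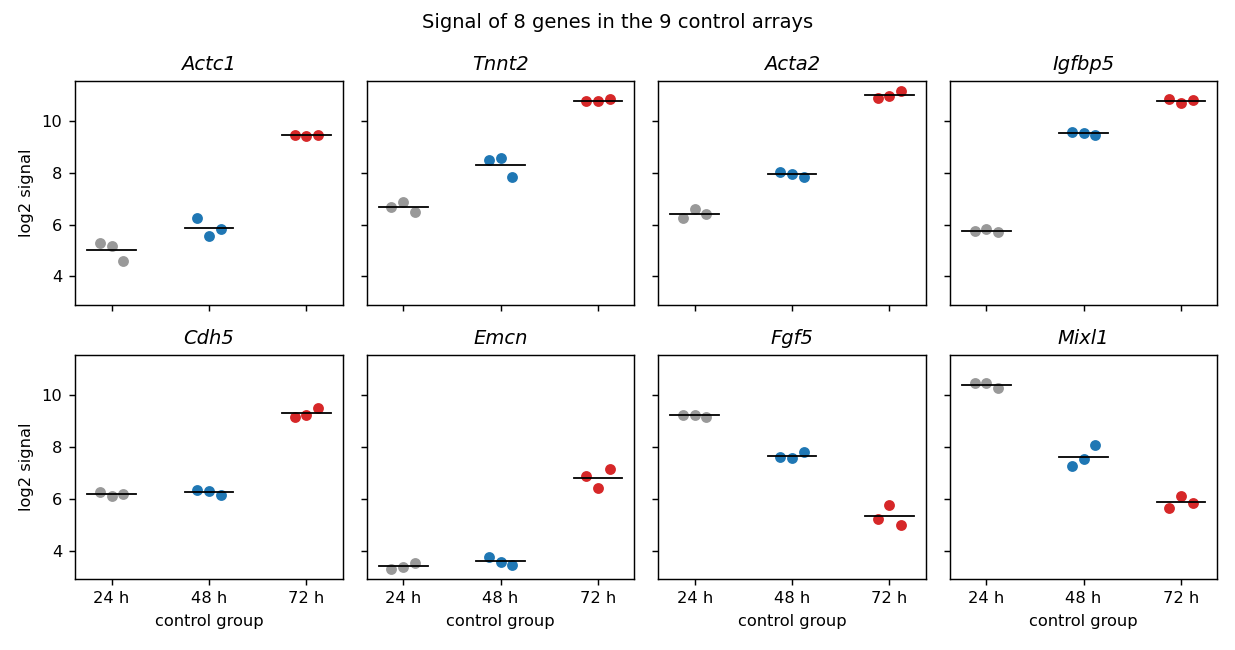
Log2 signal of 8 genes in the 9 control arrays, grouped by time in hours; each point is an array and each bar a group mean of 3 arrays. Actc1 stood at 5.89 at 48 h and 9.44 at 72 h, whereas Igfbp5 had made its larger rise before 48 h, and Fgf5 and Mixl1 fell over both steps.

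**Figure D2:**
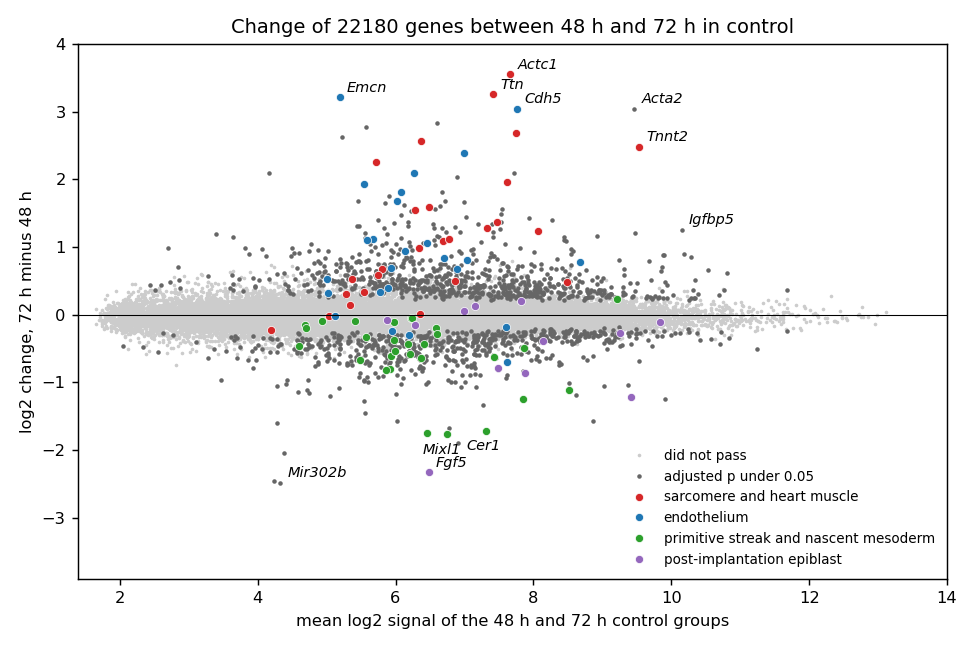
Log2 change from 48 h to 72 h against mean log2 signal for 22180 genes; small dark points passed an adjusted p of 0.05 and coloured points are members of 4 gene lists, whether or not they passed. Many sarcomere (red) and endothelial (blue) genes lie toward the top, and some streak (green) and epiblast (purple) genes toward the bottom. Other members of each list lie near the line of no change.

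Most heart muscle genes rose. Of 26 measured genes of the sarcomere and heart muscle, 20 rose and none fell, against 3.62% and 2.9% of all genes, and the median of the 26 was 1.10 against -0.02 for all genes. Ttn, which encodes the giant spring protein titin, read 6.04, 5.88 and 5.43 at 48 h and 9.05, 8.94 and 9.14 at 72 h, a 9.59-fold rise (adjusted p = 2.57e-06). Myl7, the atrial myosin light chain, read 6.80, 6.42 and 5.99 at 48 h and 9.14, 9.18 and 8.97 at 72 h, a 6.46-fold rise. Myh6, the alpha heavy chain of cardiac myosin, read 5.13, 4.83 and 5.31 at 48 h and 7.74, 7.64 and 7.60 at 72 h, a 5.93-fold rise. Its beta counterpart Myh7 rose 3.91-fold. Myom1, which links myosin filaments at the M-band, rose 4.78-fold, from 4.59 ± 0.19 to 6.85 ± 0.20.

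The other risen members covered thick filament, thin filament and Z-disc. Mybpc3, the cardiac myosin-binding protein C, rose by 1.55 ± 0.16, Tnnc1, the slow and cardiac troponin C, by 1.37 ± 0.20, and Smyd1, a muscle methyltransferase needed for sarcomere assembly, by 1.59 ± 0.19. The smallest of the 20 rises was 0.49. The 6 members that did not pass lay between -0.22 and 0.34. Among them, Nppa, the atrial natriuretic peptide, changed by 0.14 (adjusted p = 0.456) and Myl2, the ventricular light chain, by 0.30 (adjusted p = 0.152). With any of the 6 arrays left out, 19 or 20 of the 26 rose. At 48 h, replicate 3 was the lowest of its group in 14 of the 20 risen members.

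Genes of calcium handling followed in part. Of 14 measured, 4 rose and 1 fell, with a median of 0.30. Slc8a1, the cardiac sodium-calcium exchanger, read 5.85, 5.84 and 5.63 at 48 h and 7.45, 7.52 and 7.78 at 72 h, a 3.5-fold rise (adjusted p = 4.14e-05). Cacna1c, the pore of the L-type calcium channel, rose 2.44-fold, and Ryr2, the calcium release channel of the heart, rose 2.33-fold. Jph2, which holds the release channel close to the surface membrane, rose by 0.75 ± 0.14. Gja1, which encodes a gap junction connexin, fell by 0.31 (adjusted p = 0.00544). Of 27 genes on the respiratory chain list, 2 rose and 1 fell, with a median of -0.06. The 2 that rose were Ppargc1a, a coactivator of mitochondrial genes (0.86 ± 0.13), and Cox6a2 (0.60 ± 0.13). Cox6a2 encodes the heart and skeletal muscle form of a cytochrome oxidase subunit.

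Fewer transcription factors of the heart lineage passed. Of 19 measured, 5 rose and none fell, with a median of 0.30. Myocd, a coactivator of serum response factor, read 6.90, 6.97 and 6.52 at 48 h and 7.90, 8.11 and 8.06 at 72 h, a rise of 1.22 ± 0.20 (adjusted p = 0.00109). Mef2c, a MADS-box factor of heart and vessels, rose by 0.85 ± 0.22, and Gata5 by 0.77 ± 0.20. Irx4, a ventricular factor, and Mef2a rose by 0.46 ± 0.11 and 0.30 ± 0.06. Nkx2-5 changed by 0.32 (adjusted p = 0.0766), Isl1 by 0.31 (adjusted p = 0.228) and Hand1 by -0.33 (adjusted p = 0.427). Between 2 and 5 of the 19 rose with an array left out: 2 without replicate 2 of 72 h, and 3 without replicate 3 of 48 h or replicate 3 of 72 h.

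Among 17 smooth muscle genes, 3 rose and 1 fell, with a median of 0.19, so the 8.26-fold rise of Acta2 was not shared by most of the list. Tagln, which encodes transgelin, rose by 0.45 ± 0.12 and Tpm2, a tropomyosin, by 0.37 ± 0.08, and Tagln2 fell by 0.37. Without replicate 2 of 48 h or replicate 1 of 72 h, 1 of the 17 rose, and the fall of Tagln2 was lost in 5 of the 6 omissions. Myh11, the smooth muscle myosin, changed by -0.09. Muscle actin genes are nearly identical in coding sequence and could share probes, which was not tested. The other muscle actins Acta1 (skeletal) and Actg2 (enteric) changed by 0.25 (adjusted p = 0.161) and 0.37 (adjusted p = 0.173). Of 15 skeletal muscle genes none passed in limma, 4 had an unadjusted p under 0.05, and Myod1 and Myog changed by -0.06 and 0.04.

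**Figure D3:**
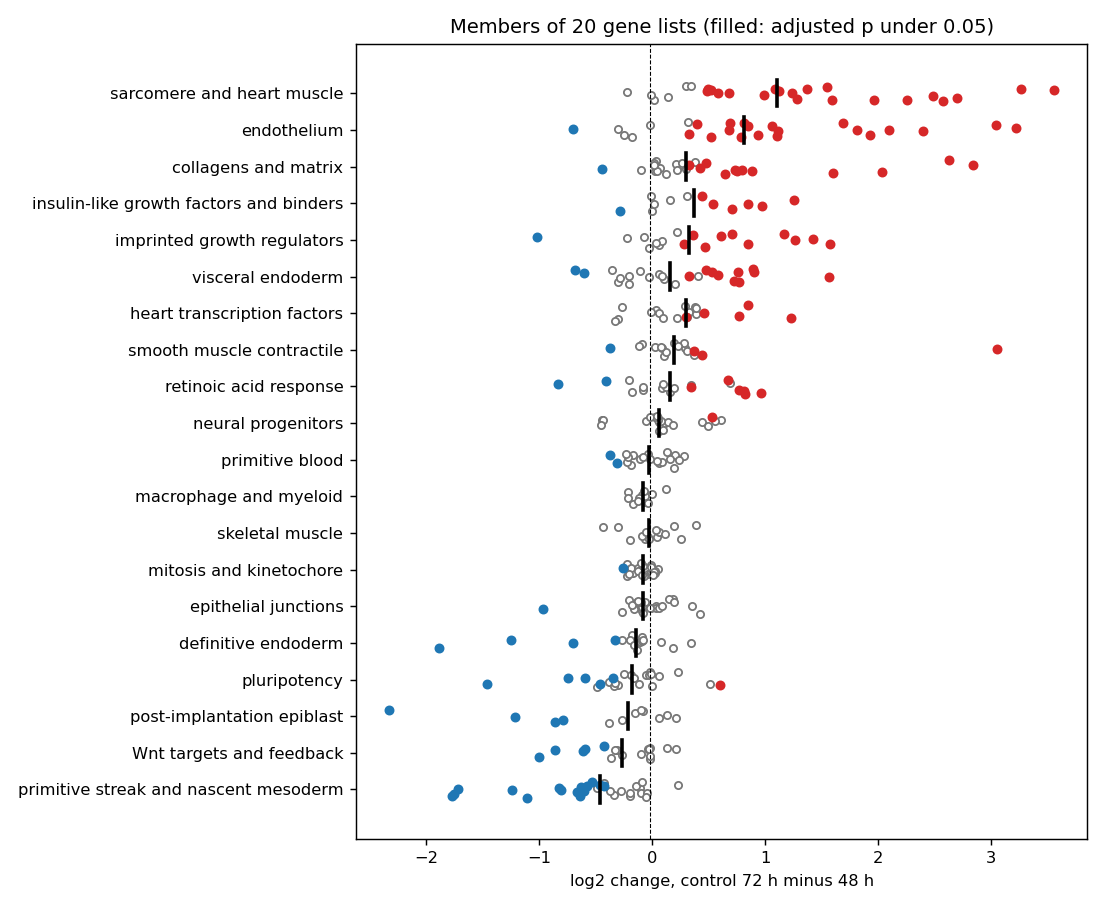
Log2 change from 48 h to 72 h of each measured member of 20 gene lists; filled red points rose, filled blue points fell, open points did not pass, thick bars are list medians and the dashed line is the median of all genes. Sarcomere and endothelial members spread to the right up to 3.56 and 3.21, whereas streak members lie to the left down to -1.76.

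Because many sarcomere genes moved together, their promoters were searched for 3 short motifs in windows from 250 bases before to 50 bases after each annotated start (RefSeq, GRCm38.p6). Of the 20 risen members, 17 matched the table, with 24 windows. The CArG box, the 10-base site bound by serum response factor, was found in 7 of the 24 windows (29.2%), against 535 of 32851 windows of all genes (1.63%). The 7 windows belong to 6 genes, since a pair of overlapping Ldb3 windows holds the same box. The box reads as a CArG box on both strands. The TATAAA motif, searched on both strands, was in 3 of 24 windows (12.5%, against 13.6% of all), and the GATA motif AGATAA, also on both strands, in 4 of 24 (16.7%, against 11.2%). A CArG box can contain the letters TATAAA, so these motifs can overlap. No CArG box was found in the 2 windows of risen smooth muscle genes or the 13 windows of 9 risen endothelial genes. Of the 3 risen smooth muscle genes, 2 had a window and Tagln had none, so these windows are too few for a comparison. Only exact matches to CC, 6 bases of A or T, and GG were counted, so boxes with a mismatch were missed. A match describes the letters and was not measured as a bound site. Sarcomere members that did not rise were not counted on their own, so whether the box goes with the rise was not tested.

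The boxes of the 6 sarcomere genes are shown because these genes rose together. Each line gives the strand of the gene, 5′ to 3′, with the CArG box in capitals and 15 bases on either side.
Actc1 (chr2:114052898-114052937, minus strand, box from base -47): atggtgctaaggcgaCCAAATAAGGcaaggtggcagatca
Myl7 (chr11:5898819-5898858, minus strand, box from base -61): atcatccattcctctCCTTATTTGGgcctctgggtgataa
Myom1 (chr17:71019443-71019482, plus strand, box from base -99): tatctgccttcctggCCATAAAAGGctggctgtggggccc
Nebl (chr2:17462994-17463033, minus strand, box from base -162): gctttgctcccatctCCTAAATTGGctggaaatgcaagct
Myl3 (chr9:110763578-110763617, plus strand, box from base -85): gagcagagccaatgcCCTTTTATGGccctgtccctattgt
Ldb3 (chr14:34588692-34588731, minus strand, box from base -35): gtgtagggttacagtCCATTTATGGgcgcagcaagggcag
Of these genes, Nebl, a nebulin-related Z-disc protein, rose by 1.12, Myl3, the slow and ventricular light chain, by 1.09, and Ldb3, a Z-disc adaptor, by 0.58. The 150 bases before the annotated starts of Actc1 and Myl7, the pair with the largest rises among the 6, show where the box stands.
Actc1 (chr2:114052876-114053025, minus strand): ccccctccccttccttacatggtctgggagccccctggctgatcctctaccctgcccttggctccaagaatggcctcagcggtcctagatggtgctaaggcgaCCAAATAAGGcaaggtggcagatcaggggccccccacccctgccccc
Myl7 (chr11:5898783-5898932, minus strand): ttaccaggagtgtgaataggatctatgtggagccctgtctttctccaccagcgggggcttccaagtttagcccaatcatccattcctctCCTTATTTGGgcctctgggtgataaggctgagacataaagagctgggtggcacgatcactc

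Endothelial genes formed the other large rise. Of 25 measured, 19 rose and 1 fell, and their median was 0.81. Emcn, a sialomucin of vein and capillary walls, read 3.73, 3.56 and 3.46 at 48 h and 6.86, 6.41 and 7.13 at 72 h, a 9.29-fold rise (adjusted p = 2.14e-05). Cdh5, the cadherin of endothelial junctions, read 6.32, 6.29 and 6.13 at 48 h and 9.14, 9.22 and 9.51 at 72 h, an 8.24-fold rise (adjusted p = 1.12e-06). The 48 h levels of both genes were close to those of 24 h, and the groups of 48 h and 72 h lay far apart.

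Among regulators, the ETS factor Fli1 rose 5.27-fold, from 5.79 ± 0.05 to 8.19 ± 0.11, its relative Erg 3.21-fold and Sox18 3.81-fold. Among receptors, Tek, the receptor of angiopoietins, read 5.41, 5.04 and 5.22 at 48 h and 7.27, 7.20 and 7.48 at 72 h, a 4.26-fold rise. Kdr, the main VEGF receptor, which lateral mesoderm already carries, rose by 0.78 ± 0.18, from 8.29 ± 0.23 to 9.07 ± 0.03. Plvap, which spans the diaphragms of fenestrated vessels, rose 3.51-fold, and Dll4, the Notch ligand of arterial and tip cells, rose by 0.82 ± 0.12. Etv2, the ETS factor that starts the endothelial and blood programme, read 6.28, 6.04 and 5.89 at 48 h and 6.09, 5.91 and 5.48 at 72 h (adjusted p = 0.404). Sox17, shared with endoderm, fell by 0.70 ± 0.08. Between 14 and 18 of the 25 rose with an array left out, and replicate 3 of 72 h was the highest of its group in 15 of the 19.

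Primitive blood arises from the same mesoderm as the first endothelium. Of 20 genes of primitive blood, none rose, and Gata1 and Cited4 fell by 0.31 and 0.37. At most 1 of these falls passed with an array left out, none without replicate 3 of 48 h or replicate 1 or 3 of 72 h, and none with the 6 arrays or the 9 control arrays alone or with the replicate block. The embryonic globin gene Hbb-bh1 read 3.46, 3.05 and 3.24 at 48 h and 3.51, 3.13 and 3.25 at 72 h, with overlapping groups (adjusted p = 0.903). Hba-x changed by 0.16 (adjusted p = 0.458). None of 12 macrophage genes passed, and none had an unadjusted p under 0.05 in limma. Clec1b, a lectin receptor known from platelets, which was on no list, read 4.38, 4.16 and 4.03 at 48 h and 7.06, 6.71 and 7.13 at 72 h, a 6.87-fold rise (adjusted p = 8.73e-07).

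Genes of connective matrix rose in part. Of 27 collagen and matrix genes, 12 rose and 1 fell, with a median of 0.30. Postn, periostin of valves and connective tissue, read 5.13, 5.53 and 4.89 at 48 h and 7.86, 7.51 and 8.69 at 72 h, a 7.13-fold rise (adjusted p = 0.000143). Lum, the collagen-binding proteoglycan lumican, read 3.99, 4.09 and 3.66 at 48 h and 6.33, 6.23 and 7.06 at 72 h, a 6.19-fold rise. Col3a1, a fibrillar collagen, rose 4.09-fold and Tnc, tenascin C, 3.04-fold. In each of these 4 genes replicate 3 of 72 h was the highest array, although the lowest 72 h array still lay above every 48 h array.

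Vcan, the versican of heart jelly, rose by 0.89 ± 0.11 and Col2a1, the cartilage and notochord collagen, by 0.80 ± 0.09. Col1a1 rose by 0.32, while Fn1, Sparc and Col4a1, matrix genes that early embryos already make, lay at changes of 0.22, 0.02 and 0.02 and did not pass. Between 8 and 11 of the 27 rose with an array left out. Of 13 laminin and basement membrane genes, Nid1 and Lamb2 rose by 0.46 and 0.39. Among 17 mesenchymal transition genes, 4 rose and none fell: Vim, vimentin, by 0.66 ± 0.09, Zeb1 by 0.52 ± 0.13, Tcf4 by 0.28 and Itgb1 by 0.25. Without replicate 3 of 48 h 1 of these 17 rose, and without replicate 1 or replicate 3 of 72 h 2 rose. Of 25 epithelial junction genes, 1 changed: Grhl3, a factor of surface epithelium, fell by 0.96 ± 0.12. Cdh1, E-cadherin, changed by -0.10.

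Insulin-like growth factor genes and imprinted growth genes, lists that share Igf2 and Igf2r, rose. Of 12 genes of the growth factors, receptors and binding proteins, 6 rose and 1 fell, with a median of 0.37. Igf2, the main fetal ligand, read 10.03, 9.88 and 9.69 at 48 h and 10.62, 10.70 and 10.81 at 72 h, a rise of 0.85 ± 0.17 (adjusted p = 0.00534). Igf1 rose by 0.54 ± 0.12 and Igf2r, the clearance receptor, by 0.70 ± 0.12. Among binding proteins, Igfbp4 rose by 0.97 ± 0.15 and Igfbp3 by 0.44 ± 0.10, and Igfbp2 fell by 0.29. With an array left out, 4 to 7 of the 12 rose, and 1 fell without replicate 3 of 72 h and none without any other array. None fell with the 6 arrays or the 9 control arrays alone.

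Of 18 imprinted growth regulators, 10 rose and 1 fell, with a median of 0.32. Zim1, a zinc finger gene, rose by 1.57 ± 0.26. Plagl1, a zinc finger factor that tunes other imprinted genes, read 7.33, 7.31 and 7.02 at 48 h and 8.38, 8.64 and 8.92 at 72 h, a 2.68-fold rise (adjusted p = 7.66e-06). Dlk1, a Notch-like surface protein, rose by 1.26 ± 0.19, and Cdkn1c, an inhibitor of cyclin-dependent kinases, by 1.17 ± 0.16. Phlda2, which restrains placental growth, fell by 1.01 ± 0.14. Replicate 3 of 48 h was the lowest 48 h array in 9 of the 10 risen members. Between 8 and 10 of the 18 rose with an array left out.

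More visceral endoderm genes rose than fell, and more definitive endoderm genes fell than rose. Of 24 visceral endoderm genes, 10 rose and 2 fell, with a median of 0.16. Afp, alpha-fetoprotein of yolk sac and liver, read 5.56, 5.55 and 6.26 at 48 h and 7.00, 6.84 and 8.23 at 72 h, a 2.96-fold rise (adjusted p = 0.0013). Replicate 3 was the highest array at both times, and the change without replicate 3 of 72 h was 1.13. Ttr, transthyretin, rose by 0.90 ± 0.14, Rbp4, the retinol carrier of blood, by 0.77 ± 0.11, Apoa1 by 0.76 ± 0.12 and Fgb, fibrinogen beta, by 0.89 ± 0.21. Cubn, a receptor of absorbing endoderm, fell by 0.68 ± 0.12, and Rhox5 by 0.60 ± 0.16. With an array left out, 5 to 9 of the 24 rose: 5 without replicate 2 of 48 h and 6 without replicate 3 of 72 h. With the 6 arrays alone, 4 rose and 3 fell.

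Of 16 definitive endoderm genes, none rose and 4 fell, with a median of -0.14. Cer1, a secreted inhibitor of Nodal, BMP and Wnt made by anterior endoderm, read 7.82, 7.44 and 8.28 at 48 h and 6.49, 5.80 and 5.59 at 72 h, a 3.7-fold fall (adjusted p = 0.000228). Trh, the gene of thyrotropin-releasing hormone, read 10.50, 10.44 and 10.65 at 48 h and 9.37, 9.45 and 9.04 at 72 h, a 2.37-fold fall. Sox17 and the chemokine receptor Cxcr4 fell by 0.70 and 0.33, whereas Foxa2 changed by -0.17 (adjusted p = 0.21).

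About as many genes of the primitive streak and nascent mesoderm fell as did not pass. Of 29 measured, 15 fell (51.7%, against 2.9% of all genes) and none rose, with a median of -0.46. Mixl1, a homeobox factor of the streak, read 7.26, 7.54 and 8.06 at 48 h and 5.65, 6.10 and 5.82 at 72 h, a 3.4-fold fall (adjusted p = 8.24e-05). Eomes, a T-box factor of streak and trophoblast, read 7.25, 7.22 and 7.53 at 48 h and 5.45, 5.49 and 5.81 at 72 h, a 3.37-fold fall. Lhx1, a factor of anterior streak and later of intermediate mesoderm, fell 3.27-fold, from 8.16 ± 0.11 to 6.45 ± 0.25. At 48 h, replicate 3 was the highest array in 13 of the 15 fallen members.

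Among streak signals, Rspo3, which strengthens Wnt signalling, fell 2.36-fold, and Cfc1, a Nodal coreceptor that was on no list, fell 2.52-fold, from 7.94 ± 0.14 to 6.61 ± 0.14. Foxh1, the partner of SMADs in Nodal signalling, fell by 1.11 ± 0.14. Genes of the paraxial branch fell too: Tbx6 by 0.60 ± 0.14, Msgn1 by 0.67 ± 0.17 and Dll3, a Notch ligand of somite formation, by 0.82 ± 0.15. Noto, the notochord homeobox gene, fell 2.42-fold, from 6.19 ± 0.23 to 4.91 ± 0.23. With an array left out, 9 to 13 of the 29 fell, with 9 without replicate 3 of 48 h.

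Of 24 lateral plate genes, 2 rose and none fell, with a median of 0.35 and 13 of the 24 at an unadjusted p under 0.05 in limma. The count depended on the analysis: 7 rose and 2 fell with the 6 arrays alone, 6 rose and 2 fell on the 9 control arrays, 6 rose and 1 fell with array weights, 6 rose and 1 fell of the 20 tested with dim genes left out, and 4 rose without replicate 1 of 48 h. The members that did not pass lay between -0.62 and 0.79. Nr2f2, an orphan receptor of atria, veins and mesenchyme, read 6.47, 6.20 and 5.80 at 48 h and 7.79, 7.93 and 7.73 at 72 h, a 3.16-fold rise (adjusted p = 7.79e-05). Wt1, a factor of the epicardium and nephric mesoderm, rose by 0.46 ± 0.09. Of 36 Hox genes, 1 rose and 1 fell (2.78% each, against 3.62% and 2.9% of all genes), with a list median of 0.10. Hoxd10 rose by 0.49 ± 0.12 and Hoxb1, which comes on early in the posterior streak, fell by 1.06 ± 0.21. No Hox gene rose with the 6 arrays or the 9 control arrays alone. The same held without replicate 1 or 2 of 48 h or replicate 2 of 72 h.

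Of 12 epiblast genes, 4 fell and none rose, with a median of -0.21. Fgf5, the growth factor that marks the post-implantation epiblast, read 7.59, 7.56 and 7.78 at 48 h and 5.23, 5.75 and 4.98 at 72 h, a 5.0-fold fall (adjusted p = 2.57e-06). Dnmt3b, a DNA methyltransferase of the epiblast, fell 2.32-fold, from 10.02 ± 0.05 to 8.80 ± 0.17. Lef1 and Zic2 fell by 0.86 and 0.79. Of 24 pluripotency genes, 5 fell and 1 rose, with a median of -0.17. Nanog read 6.35, 6.29 and 6.20 at 48 h and 4.45, 5.05 and 4.96 at 72 h, a 2.75-fold fall (adjusted p = 0.00144). Pou5f1, which encodes OCT4, fell by 0.34 ± 0.09, Klf5 by 0.59 and Sall4 by 0.46. Sox2, which neural progenitors also keep, rose by 0.60 ± 0.17, and it did not pass with any of the 6 arrays left out. Without replicate 3 of 48 h or of 72 h, 3 of the 24 fell.

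The largest falls among the named genes were those of Mir302b and Mir302a, ahead of Fgf5. Their cluster makes microRNAs of the pluripotent state and epiblast, and it lies on chromosome 3 at chr3:127545228-127545807 on the plus strand (GRCm38.p6), where RefSeq places 5 hairpins within 580 bases. The array reads probe sets assigned to these genes and does not separate hairpin, precursor and mature forms. Some mature sequences of the cluster are shown, 5′ to 3′ from RefSeq, because Mir302b and Mir302d, which fell together, share a seed. Bases 2 to 8, the seed that pairs with targets, are in capitals.
miR-302b-3p: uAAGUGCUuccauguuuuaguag
miR-302d-3p: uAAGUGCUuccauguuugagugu
miR-302c-3p: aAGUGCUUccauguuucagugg
miR-302a-5p: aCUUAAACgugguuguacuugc
miR-367-3p: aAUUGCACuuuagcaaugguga
The entries of miR-302b-3p and miR-302d-3p share the seed AAGUGCU. The miR-302c-3p entry starts at a later base of the same run and so has the seed AGUGCUU. The entries of miR-302a-5p and miR-367-3p each have a different seed. No entry for miR-302a-3p was held in the source used here, so the seed of that form was not compared. Not shown are miR-302b-5p, miR-302c-5p and miR-302d-5p, which share the seed CUUUAAC. The miR-367-5p entry is not shown either.

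Mir302b read 5.37, 5.52 and 5.81 at 48 h and 3.05, 2.89 and 3.31 at 72 h, a 5.57-fold fall (adjusted p = 6.38e-05). Mir302a read 5.67, 5.19 and 5.52 at 48 h and 2.89, 3.13 and 2.99 at 72 h, a 5.49-fold fall (adjusted p = 7.89e-06). Mir302c and Mir302d fell 4.13-fold and 3.02-fold. In all 4 genes the groups lay apart, and each passed in every one of the 16 alternatives that measured it. Mir367, at the end of the cluster, read 3.23, 2.81 and 3.54 at 48 h and 2.65, 2.21 and 2.48 at 72 h, a change of -0.75 (adjusted p = 0.147). These signals are low, and no detection values were used, so their distance to background is not known. Of 467 microRNA genes measured, 8 rose and 7 fell. These are smaller shares than the 3.62% and 2.9% of all genes that rose and fell.

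Signalling lists changed in part. Of 17 Wnt targets and feedback genes, 5 fell (29.4%, against 2.9% of all genes) and none rose, with a median of -0.27. They were Lgr5, a receptor of R-spondins, which fell 1.99-fold, Lef1, the secreted inhibitor Dkk1 (fell by 0.61 ± 0.09), Axin2 (fell by 0.59 ± 0.12) and Sp5 (fell by 0.43). Of 24 genes of FGF signalling and ERK feedback, 4 fell and none rose: Fgf5, Fgf10, Spry4 and Etv4, the last 3 by 0.53, 0.42 and 0.37. Without replicate 3 of 48 h or replicate 1 of 72 h, and with the 6 arrays or the 9 control arrays alone, 2 of the 24 fell. Of 18 genes of TGF-beta and Nodal signalling, 7 rose (38.9%, against 3.62% of all genes) and none fell. They included the ligand Tgfb2 (0.71 ± 0.18), its latency protein Ltbp1 (0.62 ± 0.12), the receptors Tgfbr1 and Tgfbr2 (0.41 and 0.35) and the target Tgfbi (0.91 ± 0.15). The Nodal-related genes Foxh1, Cfc1 and Cer1, which fell as given above, are not among these 18. With an array left out, 2 to 6 of these 18 rose: 2 and 3 without replicate 3 and replicate 1 of 72 h, and 4 without replicate 2 or replicate 3 of 48 h.

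Of 19 genes of retinoic acid metabolism and response, 6 rose and 2 fell. Rarb, a receptor that the acid itself induces, rose by 0.96 ± 0.14, the homeobox genes Meis2 and Meis1 by 0.81 ± 0.11 and 0.67 ± 0.14, and Aldh1a2, the enzyme that makes the acid in embryos, fell by 0.83 ± 0.22. Between 4 and 6 of the 19 rose with an array left out, and 1 fell without replicate 2 of either time and none without any other array. Of 16 BMP targets, Id2 rose by 0.65 ± 0.09, and Msx2 and the BMP-binding protein Bmper fell by 0.75 and 0.39. Of 18 Notch genes, Dll4 and Hey1 rose, by 0.82 and 0.39, and Dll3 and Hes7 fell, by 0.82 and 0.31.

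Lists of other cell types had 1 to 4 changed members each. Of 21 neural progenitor genes, Irx3 alone rose, by 0.53 ± 0.10, and Sox1 and Pax6 changed by -0.44 (adjusted p = 0.332) and 0.44 (adjusted p = 0.196). Of 13 neural crest genes, Ednrb, the endothelin B receptor, and Ets1, which endothelium shares, rose by 1.16 and 0.68, and Zic5 fell by 0.53. Of 12 trophoblast genes, Plet1 rose, and Eomes, Cdx2 and Ascl2 fell (25%, against 2.9% of all genes), with a median of -0.20. The fallen numbered 1 without replicate 2 or 3 of 48 h or replicate 1 of 72 h. Of 12 germ cell genes, Ifitm3 fell by 0.40. Stmn2, a tubulin-binding protein known from neurons and on no list, fell 2.97-fold, from 9.66 ± 0.10 to 8.08 ± 0.25. Other large changes off the lists were the rise of Klk1, tissue kallikrein (4.27-fold), and of Ccdc141 (4.28-fold), and the falls of Samd3 (3.18-fold) and Crybg1 (2.98-fold).

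Cell cycle machinery genes fell at a share near that of all genes, and none rose. Of 23 mitosis genes, Ttk alone fell, by 0.26 (4.35%, against 2.9% of all genes). Of 27 DNA replication genes, Mcm10 alone fell, by 0.27 (3.7%). The list medians were -0.08 and -0.05. An unadjusted p under 0.05 in limma was reached by 8 of the 23 and 4 of the 27, against 4246 of all 22180 genes. Of 21 cell cycle inhibitors and p53 targets, 7 fell and 2 rose. Tnfrsf10b, a death receptor, fell by 0.72 ± 0.09, Perp by 0.60 ± 0.09, Zmat3 by 0.41 and Pmaip1 by 0.32, whereas Cdkn1c and Plk2 rose. Without replicate 3 of 48 h or of 72 h 3 of the 21 fell, and without replicate 1 of 72 h 4 fell. Cdkn1a, which encodes p21, changed by -0.08. Of 22 stress genes, Gclm, Asns and Hsph1 fell, by 0.37, 0.35 and 0.25, and 1 fell without replicate 3 of 72 h or with the 6 arrays alone. Glycolysis and hypoxia genes had 1 member up, Hk1 (0.38), and 1 down, Ndrg1, which fell by 0.36. Of 16 cholesterol synthesis genes, Hsd17b7 rose by 0.27, and of 13 interferon-linked genes, Usp18 fell by 0.38. Hsd17b7 passed with an array left out only without replicate 2 of 72 h, and Usp18 only without replicate 1 of 48 h. Among lists that can follow RNA quality or loading, 1 of 64 ribosomal protein genes rose and 2 fell, with a median of -0.11, and 2 of 73 small nucleolar RNAs rose and 3 fell. An unadjusted p under 0.05 was reached by 21 of the ribosomal and 24 of the nucleolar genes, against 4246 of all 22180. Ribosomal falls numbered 5 without replicate 1 of 72 h, none without 3 of the other arrays (replicate 3 of 48 h and replicates 2 and 3 of 72 h), 8 of the 57 tested with dim genes left out and 10 with limma's trend and robust options. Nucleolar rises numbered 7 without replicate 3 of 72 h and 0 or 1 without any other array. Of 25 replication histones none passed in limma, with 4 at an unadjusted p under 0.05. Their part in the changes above was not tested.

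The step was then set against the one before it, from 24 h to 48 h. Both steps use the 48 h arrays, so an error in those arrays would push the steps in opposite directions. In the earlier step 1536 genes rose (6.93%) and 1487 fell (6.7%). The difference of the steps itself passed in 556 genes: in 187 the later change was the higher (0.843%) and in 369 the lower (1.66%). Without replicate 1 or replicate 2 of 48 h, 285 and 321 genes passed.

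Among the 26 sarcomere genes, 6 rose before 48 h (median 0.25) and 20 after (median 1.10), and the later step was the higher in 5: Actc1, Ttn, Myh6, Myom1 and Mybpc3. Myh6 changed by -0.30 (adjusted p = 0.406) in the earlier step and rose by 2.57 in the later one, a difference of 2.87 ± 0.37 (adjusted p = 0.000317). Tnnt2 rose in both, by 1.61 and 2.48, and the difference of 0.87 did not pass (adjusted p = 0.501). In the endothelium list, 2 genes rose and 2 fell before 48 h, with a median of -0.05, and the difference passed upward in 13 of 25. Cdh5 changed by 0.06 before 48 h and rose by 3.04 after it, a difference of 2.98 (adjusted p = 0.000434).

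Of the transcription factors of the heart lineage, 10 of 19 rose before 48 h and 1 fell, with the later step the lower in 3: Hand1, Tbx20 and Isl1. Tbx20 rose by 1.89 before 48 h and changed by 0.29 after it (difference adjusted p = 0.00581). Lateral plate genes had 15 of 24 up before 48 h, BMP targets 12 of 16 and imprinted genes 12 of 18, with the later step the lower in 7, 5 and 4. Streak genes fell over both steps, 20 of 29 before 48 h and 15 after, and the median went from -0.82 to -0.46. Mixl1 fell by 2.76 and then by 1.76, and the difference did not pass (adjusted p = 0.222). Of the 16 definitive endoderm genes, 6 rose and 1 fell before 48 h, none rose and 4 fell after, and the difference passed downward in 7. Trh alone of these 16 passed in both steps with opposite signs: it rose by 0.43 and then fell by 1.24, a difference of -1.68 (adjusted p = 0.000232).

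The 6 genes with the smallest p-values for the difference of steps all rose before 48 h and had a lower change after it. Igfbp5 rose by 3.76 before 48 h and by 1.26 after it, a difference of -2.50 ± 0.15 (adjusted p = 3.52e-07). Cpm, a carboxypeptidase of the cell surface, rose by 2.54 and then changed by 0.06. Frem1, an extracellular matrix protein, rose by 2.33 and then changed by -0.14. Adgrg1, an adhesion receptor, rose by 1.00 and then fell by 0.70, Greb1l rose by 1.17 and then fell by 0.43, and Amph, amphiphysin, rose by 1.58 and then fell by 0.28. All 6 passed in all 20 alternatives.

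**Figure D4:**
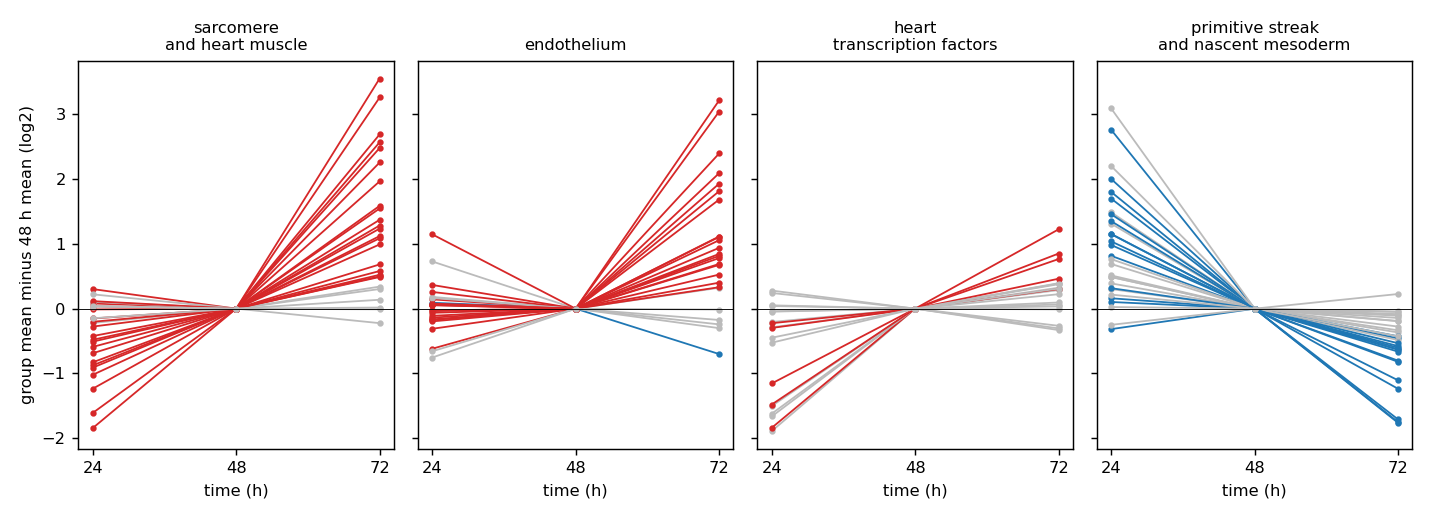
Group means of the controls at 24, 48 and 72 h, as log2 differences from the 48 h mean, for every measured member of 4 gene lists; red lines rose and blue lines fell from 48 h to 72 h, and grey lines did not pass. Before 48 h 6 of 26 sarcomere and 2 of 25 endothelial genes rose, and after it 20 and 19; 10 of 19 heart transcription factors rose before 48 h and 5 after; streak genes fell over both steps.

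The step from 48 h to 72 h was also measured in cultures exposed to thalidomide. The exposed change minus the control change passed in 21 of 22180 genes (0.0947%), 14 higher and 7 lower, and 3110 genes had an unadjusted p under 0.05. The count depended on the analysis: 365 with dim genes left out, 350 with trend and robust options, and 2 without replicate 2 of control 48 h, replicate 2 or 3 of control 72 h, or replicate 3 of exposed 48 h. All control titles carry a re-analysis tag that is missing from those of exposed 48 h and 72 h cultures, so exposure and whatever the tag marks cannot be told apart.

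Of the sarcomere genes, Myh6 passed: it rose by 2.57 ± 0.21 in control and changed by 0.65 ± 0.21 under thalidomide, a difference of -1.92 ± 0.30 (adjusted p = 0.0301), and it passed in 13 of 22 alternatives. The sarcomere median was 0.64 in exposed cultures and 1.10 in control, and the endothelium median 0.34 and 0.81, with 1 of 26 and none of 25 differences passing. Actc1 changed by 2.46 under thalidomide (difference -1.09, adjusted p = 0.308), Cdh5 by 1.80 (difference -1.24, adjusted p = 0.106) and Acta2 by 1.89 (difference -1.16, adjusted p = 0.221). Among genes that fell in control, values lay close in some and apart in others. Mixl1 changed by -1.62 under thalidomide and -1.76 in control, Fgf5 by -1.98 and -2.32, and Lhx1 by -1.72 and -1.71, whereas Tnfrsf10b changed by 0.06 under thalidomide and -0.72 in control, a difference that passed. The epiblast median was 0.01 under thalidomide and -0.21 in control, and the definitive endoderm median 0.00 and -0.14. A difference that misses the threshold does not show that the steps were alike.

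**Figure D5:**
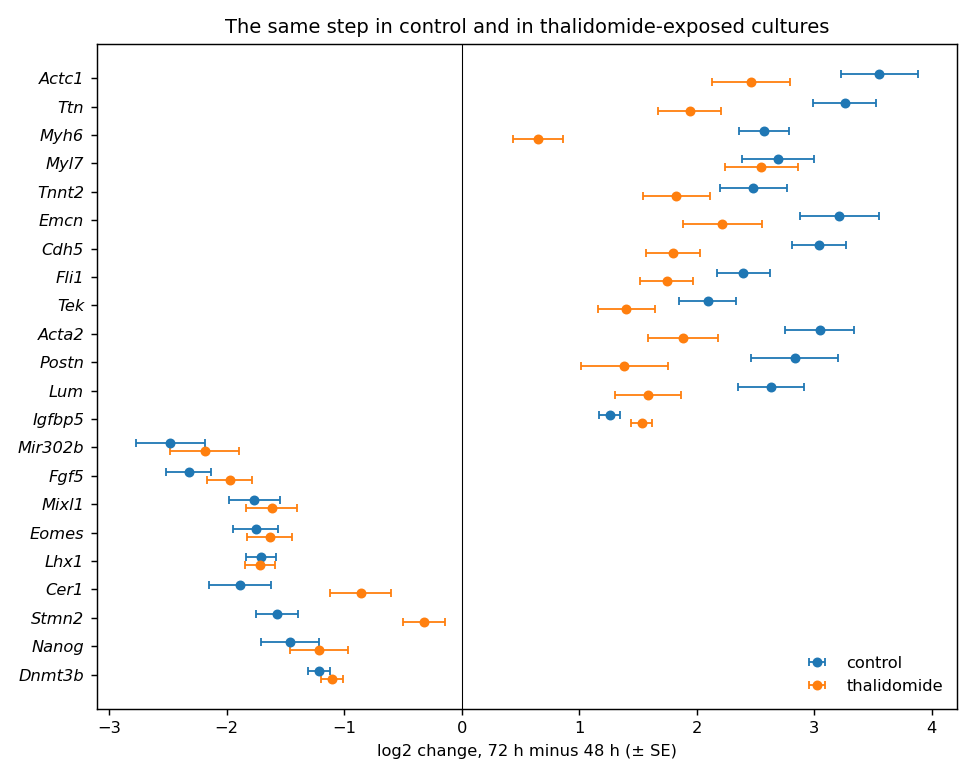
Log2 change from 48 h to 72 h of 22 genes in control (blue) and thalidomide-exposed (orange) cultures, with standard errors from limma. The gap was widest for Myh6, at 2.57 in control and 0.65 in exposed cultures, the only gene drawn here whose difference passed; Myl7 stood at 2.69 and 2.55.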

How the data were processed

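Affymetrix gene arrays measured biotin-labelled RNA of 18 samples. The authors deposited log2 signals; the submitters' processing notes name RMA and Expression Console 1.3. The sorted values of any pair of arrays differed by at most 0.19, and array medians ran from 5.37 to 5.46, so changes are relative and a shift of most transcripts would not be seen. Genome build and annotation were not given in the sources used here. Of 41345 probe sets, 23521 had 1 gene symbol, and the brightest probe set of each gene was used, which left 22180 genes.

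Genes were fitted with limma 3.58.1 in R 4.3.3 (1 mean per group, 18 arrays, eBayes, two-sided tests, 12 residual and 4.35 prior degrees of freedom). Contrasts were 72 h minus 48 h in control, this step minus the step before, and the exposed step minus the control step. The fit was tested on simulated data. Members and gene lists were chosen with earlier results of these data known, so lists are described by counts and medians without a test. Named were the 15 largest rises and 15 largest falls with groups that do not overlap, without predicted loci, the 4 markers, up to 6 changed members of each of 42 lists, and the 6 smallest p-values of each other contrast. Other members were named after their values were seen. Same-numbered arrays of 48 h and 72 h did not deviate together (correlations of -0.01 to -0.04, against -0.009 to 0.026 for other pairs). The labels do not say whether a number marks a shared culture or day, and these correlations cannot settle it. The number was left out of the main fit. The number of arrays limits precision. Alternatives are given at the end.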

Additional observations from a re-analysis of the deposited data

Results flagged for a closer look

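The change from 48 h to 72 h differed between thalidomide-exposed and control cultures, by limma's test of the difference itself, in 21 genes. Among those named, Sdhc, a subunit of succinate dehydrogenase, had an exposed change minus control change of 1.26, the histone gene H2bc12 of 1.35, Bod1, which acts at kinetochores, of 0.92, and the death receptor gene Tnfrsf10b of 0.78. Dexi had a difference of -0.85 and Myh6 of -1.92. Sdhc changed by -0.06 in control and 1.20 in exposed cultures, H2bc12 by -0.04 and 1.31, Bod1 by 0.28 and 1.20, and Dexi by 0.14 and -0.71, and none of these 4 control changes passed. Tnfrsf10b fell by 0.72 in control and changed by 0.06 in exposed cultures. Sdhc and H2bc12 passed in all 22 alternatives, Dexi in 16, Bod1 in 14, Myh6 in 13 and Tnfrsf10b in 11. The re-analysis tag of the control titles is missing from these exposed titles, and its part in these differences was not tested.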

How the results depend on the processing

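Against 1448 changed genes (804 up, 644 down), the replicate block on the arrays of the contrast gave 483 (306 up, 177 down), and on all 18 arrays 1364. Whether the replicate numbers pair the samples is not known. The 6 arrays alone gave 427 genes down (1028 in all), and leaving out an array 805 to 1091 (468 to 621 up, 328 to 472 down). For the difference of steps, 556 genes became 339 with the replicate block on the arrays of the contrast and 285 to 500 with an array left out. For exposed against control, 21 genes became 89 with array weights, 12 with median centring, 365 with dim genes left out, 350 with trend and robust options, 2 with the arrays of the contrast, 5 and 2 with the replicate block on 18 arrays and on the arrays of the contrast, and 2 to 31 with an array left out. The causes were not tested. Of 154 named genes that changed, 82 passed in every alternative and none reversed, and 65 were lost at most, with the block. Scaling moved the median of all genes by under 0.1. No background level was used, so dim signals are less certain.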

Other observations

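Genes of motile cilia and of the node, the ciliated pit at the front of the streak, fell in part after 48 h. This set of 49 measured genes was written after the values were seen, so its count is a description. Of the 49, 16 fell (32.7%, against 2.9% of all genes), 1 rose and the rest did not pass, with a median of -0.23. In the step from 24 h to 48 h, 10 had risen and none had fallen, and the later step was the lower in 12. Iqub, a radial spoke gene, read 5.46, 4.71 and 5.28 at 48 h and 4.14, 3.90 and 3.99 at 72 h, a 2.21-fold fall (adjusted p = 0.000235). Rsph4a, another radial spoke gene, fell 2.15-fold. Foxj1, the master factor of motile cilia, fell by 0.68 ± 0.14, and Pkd1l1, a channel protein of the node needed for left-right sensing, by 0.93 ± 0.10. With an array left out, 13 to 16 of the 49 fell, and 8 fell with the replicate block on the arrays of the contrast. With dim genes left out, 5 of the set were tested and 4 of these fell.

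Among microRNA genes of muscle, a set also written after the values were seen, Mir145a of smooth muscle read 3.66, 2.90 and 2.63 at 48 h and 4.45, 3.92 and 4.26 at 72 h, a 2.21-fold rise (adjusted p = 0.021). Mir208a and Mir208b, which lie within introns of Myh6 and Myh7, rose by 0.51 and 0.44, from means of 2.60 and 2.22 that are among the dimmer signals. Mir143, the neighbour of Mir145a, changed by 0.31 (adjusted p = 0.257). With an array left out, 0 to 2 of the 15 genes of this set rose: none without replicate 2 or 3 of 48 h or replicate 3 of 72 h, 1 without replicate 1 of either time, and 2 without replicate 2 of 72 h.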
